A study of Arabidopsis thaliana with 18 samples.

Results

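The interaction of leaf compartment with genotype was measured in Arabidopsis thaliana. It is the margin minus center difference of a gene in the quadruple mutant tcp2tcp3tcp4tcp10 minus the same difference in wild-type Col-0. The contrast used 12 of the 18 RNA-seq libraries of the series, chosen by their labels, with 3 libraries in each of 4 groups: quadruple mutant margin, quadruple mutant center, Col-0 margin and Col-0 center. The other 6 libraries, margin and center of the double mutant tcp2tcp4, entered the estimate of the spread but not the contrast. Each library held leaf 5 at the emergence of leaf 7 and at Zeitgeber time 6, cut on a cold surface into a margin and a center portion. Portions of 15 to 20 plants were pooled. All lines were kept at 23 °C in days of 16 h light and 8 h dark, on plates for 5 days and afterwards on soil. The lines entered the greenhouse 2 days apart to match leaf stage, beginning with the quadruple mutant and finishing with Col-0. Genotype and the age of the plants therefore cannot be told apart. The sources used here do not give the mutant alleles. How far the pools were grown apart is not stated either, so p-values cover these pools only. Unless a fit is called blocked by leaf pool, the margin and center of the same pool were not paired. The p-values then measure the spread between libraries within groups.

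TCP2, TCP3, TCP4, TCP10 and TCP24 encode CIN-class TCP transcription factors, and their transcripts are targets of the microRNA miR319. In leaves these factors are known to end cell division and to promote differentiation, and plants with less of them have crinkled leaves that keep growing at the edge. They are known to act in part through miR396, which lowers the GRF growth regulators, and through auxin, cytokinin and jasmonate pathways.

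Reads counted in genes were 6389212 to 12018414 per library of the contrast. Reads aligned to several places were 3.71% to 4.97% of all reads in 11 of these libraries and 8.60% in Col-0 margin library 1; without it 2917 genes passed the test described next. The double mutant margin library 3 had 16.0%, and without it 3194 passed. Pool 2 of Col-0 stood apart in the summed level of genes of wounding, touch and cold, and the cause was not tested. This sum was 282 to 382 CPM in the quadruple mutant margin and 292 to 376 CPM in its center. In Col-0, pool 2 had 802 CPM in the margin and 495 CPM in the center, against 174 and 183 CPM in the margin and 205 and 167 CPM in the center of the other pools. Without Col-0 margin library 2, 2813 genes passed, and without Col-0 center library 2, 2567. Levels are given as CPM, read counts scaled by TMM to a common library size, and are compared for 1 gene across libraries, not between genes. Among markers of tissue, 31 light harvesting genes of green leaf blade summed to 86467 to 101813 CPM in the quadruple mutant margin and 102518 to 126805 CPM in its center. Their sums were 172138 to 190546 CPM in the Col-0 margin and 149870 to 150995 CPM in the Col-0 center. These genes had reads in every group and are also a result below, so their sums do not check the cut into margin and center. Of the 14 boundary and KNOX genes, known from meristems and organ boundaries, 11 had too few reads to test. Because the strand used in counting is not stated, counts are uncertain for genes that overlap a neighbour in the annotation. Among those given below these include TCP3, TPX2, AUR2, KNOLLE, PCNA2, CYCD3;1, CYCD3;2, GRF1, AS1, AT5G33370, GL2, PP2-A1, FLA11, GASA6, IAA3, ARR9, CYP71A13, EDS5, CYP708A1 and WRKY29. They also include MYB3R1, MCM7, CYCD6;1, DEL1, GRF3, GRF9, GIF2, GIF3, IAA13, POLAR, ERL1, AT1G22690, ABCG11, BDG1, SHN2 and MYB106. In the xylem list XCP1, CESA4, CESA7, CESA8 and LAC17 overlap a neighbour as well as FLA11. Further ones are JAZ12, SOT18, IMD1, AT2G31790, CHS, LNK2 and BOP2. TCP2 stood at 8.15, 9.80 and 8.52 CPM in the quadruple mutant margin, against 63.5, 60.8 and 65.9 CPM in the Col-0 margin. TCP10 stood at 9.98, 8.79 and 7.89 CPM in the quadruple mutant margin, against 78.6, 81.6 and 79.8 CPM in the Col-0 margin. For neither gene did the genotypes overlap. Interactions are log2 values ± SE throughout, from edgeR's quasi-likelihood test with Benjamini-Hochberg adjustment, and a positive one means that the margin stood higher relative to the center in the quadruple mutant than in Col-0. None of the 5 miR319-regulated TCP genes passed the test for the interaction by edgeR with TMM over all 18 libraries or by DESeq2. TCP2 and TCP10 had an unadjusted p under 0.05 in that edgeR fit. The values were 0.30 ± 0.13 for TCP2, -0.45 ± 0.65 for TCP3, -0.21 ± 0.15 for TCP4, 0.47 ± 0.18 for TCP10 and 0.17 ± 0.10 for TCP24. Blocked by leaf pool, TCP10 passed (0.47 ± 0.15, adjusted p = 0.0147). Library size alone gave 2 positive calls among the 5 genes. Leaving out quadruple mutant center library 1 gave 1, and so did leaving out double mutant margin library 3. The 3 other CIN-class genes, TCP5, TCP13 and TCP17, had no call by either tool, no unadjusted p under 0.05 and a median interaction of -0.01.

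Most genes called in the lists for mitosis, growth regulators and leaf surface had positive interactions: their margin stood higher over the center in the quadruple mutant than in Col-0. Genes called for light harvesting, veins, auxin response and glucosinolates were negative, with counts given below. In all, 3047 of 17763 genes tested (17.2%) passed the test for the interaction at an adjusted p under 0.05. Of these, 1414 (7.96%) were positive and 1633 (9.19%) negative, and 449 positive (2.53%) and 404 negative ones (2.27%) reached 2-fold. List counts below stand against these shares of 7.96% positive and 9.19% negative. The median over all genes was -0.00, and the median SE 0.168. Blocked by leaf pool, which pairs the margin and center of the same leaves, 4996 genes passed, 2290 positive and 2706 negative, and all 3047 were among them. The split depended on scaling: with library size alone, which moved the median of all genes to 0.15, 3083 were positive and 938 negative, and no gene called under TMM changed sign. Without quadruple mutant center library 2 the count was 2254, the lowest when 1 of the 12 libraries was left out.

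Among the positive genes the median margin minus center difference was 0.37 in the quadruple mutant and -0.24 in Col-0. Among the negative genes it was -0.38 in the quadruple mutant and 0.21 in Col-0. By the same test 4552 genes (25.6%) differed between margin and center in the quadruple mutant and 2030 (11.4%) in Col-0, and 7796 (43.9%) differed between the genotypes in the margin and 5520 (31.1%) in the center. These contrasts share libraries with the interaction, so they describe its shape and are not tested against it. In the double mutant the same medians were 0.08 and -0.02. By compartment, the positive genes had a median quadruple mutant minus Col-0 difference of 0.62 in the margin and -0.10 in the center. The negative genes had -0.68 in the margin and -0.04 in the center. At a size of 0.5 log2, 1463 of the 3047 genes (48.0%) differed between the genotypes in the margin alone, against 162 (5.32%) in the center alone. Another 305 (10%) differed in both compartments in the same direction and 122 (4.0%) in opposite directions, and 995 (32.7%) reached the size in neither. By the same size, 691 genes (22.7%) differed between margin and center in the quadruple mutant alone and 247 (8.11%) in Col-0 alone. The compartments differed in opposite directions in the 2 genotypes for 385 genes (12.6%) and in the same direction for 89 (2.92%). For 1635 genes (53.7%) neither genotype reached the size, although the difference between the genotypes passed the test. On the linear CPM scale 1400 of the 1414 positive and 1630 of the 1633 negative genes had the same sign.

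**Figure D1:**
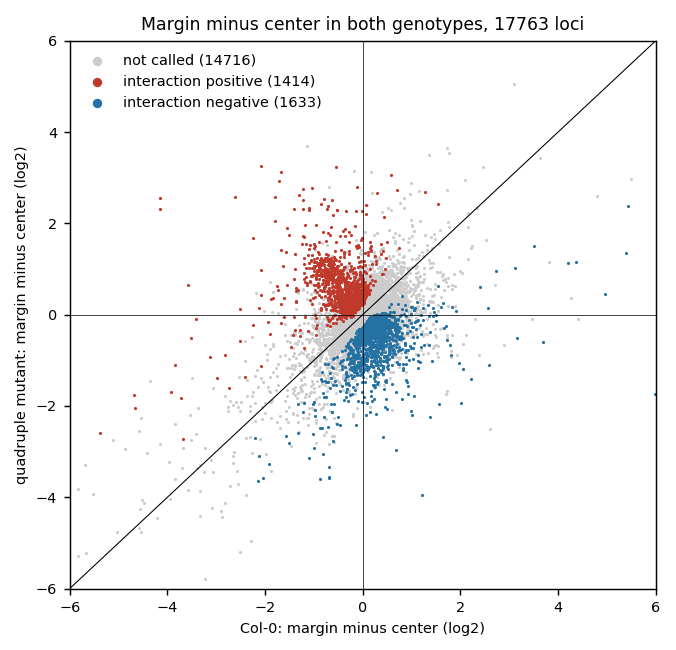
Margin minus center (log2) of each gene tested, in the quadruple mutant (vertical axis) and in Col-0 (horizontal axis), with 1414 positive interactions in red, 1633 negative ones in blue and all others in grey. The diagonal marks equal differences, 11 genes lie outside the axes, and many red points lie above 0 in the quadruple mutant and below 0 in Col-0.

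**Figure D2:**
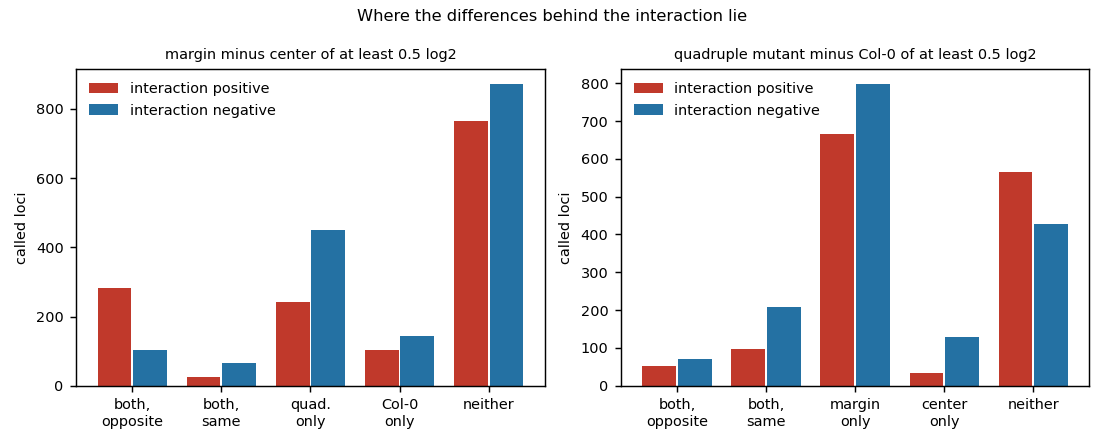
Number of called genes by where a difference of at least 0.5 log2 was found, for margin minus center within the genotypes (left) and quadruple mutant minus Col-0 within the compartments (right), with positive interactions in red and negative ones in blue. On the right the tallest bars are those of the margin alone, 666 positive and 797 negative genes.

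Genes of mitosis and cytokinesis had 32 of 35 tested members called, all positive, against 7.96% of all genes, with a median interaction of 1.61. Their median margin minus center difference was 0.85 in the quadruple mutant, -0.71 in Col-0 and 0.03 in the double mutant. CYCA2;1, CYCA2;2 and MYB3R1 were not called, with 0.42 ± 0.49, 0.64 ± 0.36 and 0.27 ± 0.13. The summed level of the list was 966 to 1120 CPM in the quadruple mutant margin and 503 to 623 CPM in its center, against 364 to 391 CPM in the Col-0 margin and 580 to 665 CPM in the Col-0 center. In pieces of whole tissue, more dividing cells and more RNA per dividing cell cannot be told apart, and the same holds for each cell type below. In the same libraries phloem genes summed to 232 to 261 CPM in the quadruple mutant margin and 468 to 524 CPM in its center, against 698 to 756 CPM in the Col-0 margin and 551 to 610 CPM in the Col-0 center. The part of vein or other tissue in the result was not tested.

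MAP65-3, a microtubule bundling protein needed for cytokinesis, had the lowest adjusted p of the list. In the quadruple mutant it had 48.3, 50.8 and 52.1 CPM in the margin and 20.8, 20.5 and 24.9 CPM in the center. In Col-0 it had 13.8, 11.5 and 16.4 CPM in the margin and 23.7, 26.3 and 26.2 CPM in the center. The quadruple mutant margin was above all other libraries and the Col-0 margin below them, while the 2 centers overlapped (2.08 ± 0.16, adjusted p = 1.3e-07). TPX2, a spindle assembly factor, stood at 38.8, 45.3 and 46.0 CPM in the margin and 15.9, 18.5 and 21.3 CPM in the center of the quadruple mutant. Its levels in Col-0 were 10.7, 10.4 and 11.3 CPM in the margin and 20.0, 20.4 and 21.9 CPM in the center. Again the centers overlapped and the margins lay on opposite sides of them (2.18 ± 0.19, adjusted p = 4.22e-07). Within each leaf pool the TPX2 margin minus center difference was 1.103 to 1.283 in the quadruple mutant and -0.96 to -0.89 in Col-0. The next 3 members were singled out after their values were seen. The Aurora kinase gene AUR2 had the highest interaction of the list (2.46 ± 0.29, adjusted p = 6.89e-06), the cyclin gene CYCB1;1 had 2.23 ± 0.28, adjusted p = 1.13e-05 and the cytokinesis syntaxin gene KNOLLE had 2.01 ± 0.18, adjusted p = 5.51e-07.

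The promoter of MAP65-3 is shown as one of those chosen by adjusted p. Mitotic genes of plants are known to carry the MSA element, bound by MYB3R factors. Each promoter given here is the 250 bases before the gene's start in TAIR10.1, 5′ to 3′ on the gene's strand, with motif matches in capitals. That of MAP65-3 lies at chr5:20964538-20964787 on the minus strand.
MAP65-3: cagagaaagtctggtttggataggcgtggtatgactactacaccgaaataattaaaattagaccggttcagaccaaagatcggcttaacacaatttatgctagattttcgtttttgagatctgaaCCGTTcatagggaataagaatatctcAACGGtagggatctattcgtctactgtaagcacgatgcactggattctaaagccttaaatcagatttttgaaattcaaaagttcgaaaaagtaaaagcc
Capitals mark the MSA core AACGG, which reads CCGTT on the other strand. Both strands were searched. MAP65-3 has MSA cores 125 and 99 bases before the start, counted from the match's first base. The MSA core is in 21 of 35 promoters of the list (60%), against 22.4% of the 17360 promoters of genes tested. It is in 28.8% of promoters of positive genes and 19.1% of negative ones. A match is a run of letters and no measure of binding, and no matches overlapped in the promoters shown.

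Of the DNA replication genes 5 of 25 were called, all positive, with a median of 0.27. CDT1B, which licenses replication origins, had 18.6, 17.7 and 19.9 CPM in the quadruple mutant margin and 8.99, 10.5 and 10.5 CPM in its center. In Col-0 it had 11.2, 9.65 and 9.76 CPM in the margin and 14.2, 13.003 and 13.1 CPM in the center. Its quadruple mutant margin was above all other libraries (1.305 ± 0.18, adjusted p = 3.42e-05). The sliding clamp gene PCNA2 reached 0.56 ± 0.12, adjusted p = 0.00221, and CDT1A, RNR1 and CDC45 were also called. The count was 3 without quadruple mutant margin library 3, its center library 2 or Col-0 center library 3, 10 in the blocked fit and 14 with library size alone. MCM2 to MCM7, of the replication helicase, were not called. Of 9 D-type cyclins, which drive entry into the cycle, 4 were called, all positive: CYCD3;1, CYCD3;2, CYCD3;3 and CYCD6;1. CYCD3;2 stood at 95.4, 101 and 99.6 CPM in the margin and 52.9, 51.0 and 53.5 CPM in the center of the quadruple mutant. In Col-0 its compartments overlapped, at 76.0, 68.6 and 73.8 CPM in the margin and 70.5, 67.6 and 70.7 CPM in the center (0.85 ± 0.09, adjusted p = 2.91e-06). Among 13 cell cycle inhibitor and endoreduplication genes DEL1, KRP7 and KRP3 were positive, against 7.96% of all genes. KRP7 had 1.19 ± 0.19, adjusted p = 0.000176. The KRP3 call was lost without any 1 of 10 libraries, and 1 or 2 members of the list were called when a library of the contrast was left out.

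**Figure D3:**
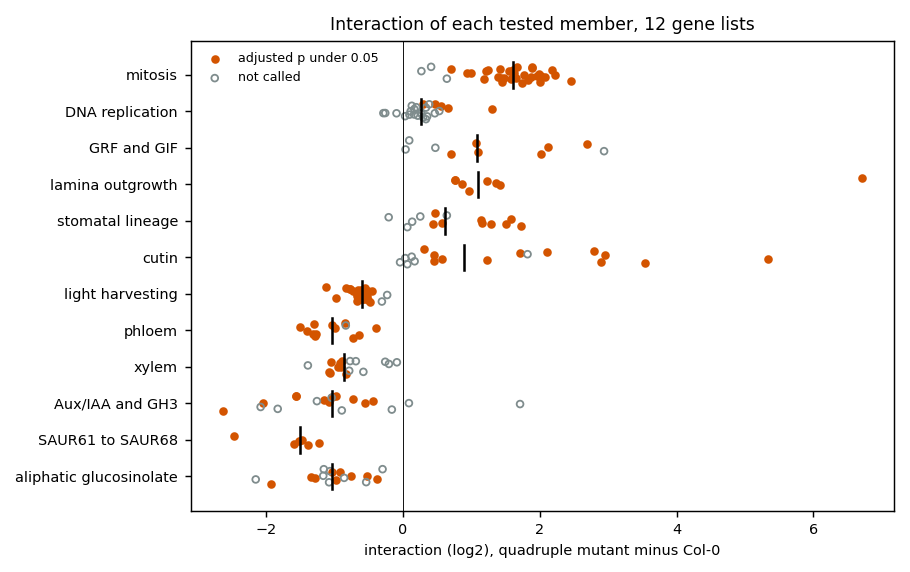
Interaction (log2, horizontal axis) of each tested member of 12 gene lists, filled where the adjusted p was under 0.05 and open where not, with a black bar at the list median. The mitosis points lie between 0.27 and 2.46, and the light harvesting points between -1.12 and -0.23. The far right point of lamina outgrowth is JAG, which had no read in the Col-0 margin.

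GRF transcription factors and their GIF partners keep leaf cells dividing, and 6 of 10 tested members were called, all positive, with a median of 1.09. The list summed to 165 to 168 CPM in the quadruple mutant margin and 117 to 118 CPM in its center, against 66.9 to 87.7 CPM in the Col-0 margin and 89.3 to 97.6 CPM in the Col-0 center. GRF4 stood at 35.7, 34.5 and 41.0 CPM in the margin and 25.5, 22.1 and 25.7 CPM in the center of the quadruple mutant. Its Col-0 levels were 13.2, 17.1 and 17.2 CPM in the margin and 23.0, 19.6 and 23.8 CPM in the center. The centers overlapped and the quadruple mutant margin was above all other libraries (1.07 ± 0.16, adjusted p = 8.28e-05). GRF1 had 30.6, 29.8 and 29.4 CPM in the quadruple mutant margin, with no overlap with any other group, while its other 3 groups overlapped each other (1.103 ± 0.16, adjusted p = 9.09e-05). GIF1, GRF2, GRF6 and GRF9 were also called, and GRF3, GRF5, GIF2 and GIF3 were not. GRF5 had 117 reads in the quadruple mutant margin and 12 in its center, against 1 read in each Col-0 compartment, and it was not called (adjusted p = 0.457). GRF7 and GRF8 had too few reads to test. The GRF4 promoter, at chr3:19618508-19618757 on the minus strand, has auxin response elements TGTCTC, which read GAGACA on the other strand (capitals).
GRF4: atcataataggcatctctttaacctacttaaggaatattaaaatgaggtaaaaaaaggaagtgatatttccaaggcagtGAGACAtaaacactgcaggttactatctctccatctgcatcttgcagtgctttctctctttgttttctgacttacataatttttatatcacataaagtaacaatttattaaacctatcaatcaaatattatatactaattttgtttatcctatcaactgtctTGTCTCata
These begin 171 and 9 bases before the start, and neither the MSA core nor the TCP class II core TGGTCC, which reads GGACCA on the other strand, is in this window. The TCP core is in 3 of 10 promoters of the list (30.0%) and 6.69% of promoters tested.

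Genes of lamina outgrowth had 8 of 8 tested members called, all positive, with a median of 1.099. These were AS1, AS2, ANT, WOX1, JAG, NGA1, NGA2 and NGA3. WOX3, NUB, KLU and NGA4 had too few reads to test. ANT, an AP2-type factor that promotes organ growth, stood at 48.3, 50.6 and 54.8 CPM in the margin and 27.6, 27.2 and 32.0 CPM in the center of the quadruple mutant. Col-0 leaves had 12.4, 13.7 and 16.4 CPM in the margin and 18.8, 17.5 and 19.8 CPM in the center. No groups overlapped, and the order was the quadruple mutant margin, its center, the Col-0 center and the Col-0 margin, from high to low (1.23 ± 0.15, adjusted p = 1.11e-05). AS1, a MYB gene that keeps KNOX genes off in leaves, had 0.77 ± 0.15, adjusted p = 0.0015. JAG, a zinc finger gene for blade growth, had 82 reads in the quadruple mutant margin and 12 in its center, against 0 in the Col-0 margin and 6 reads in the Col-0 center (adjusted p = 0.00837). With 3 reads in place of 0 over the Col-0 margin its interaction came to 3.398, which left the list median at 1.099. This value has no SE, and it is not a lower bound, since the centers also had few reads. The list count was 5 without quadruple mutant center library 2 or 3. Among 9 abaxial identity genes 1 was positive (YAB3) and 1 negative (ARF4), with a median of -0.03. These counts are near the shares of all genes, 7.96% positive and 9.19% negative. The YAB3 call was lost without quadruple mutant margin library 1, and the ARF4 call without Col-0 margin library 3 or Col-0 center library 2.

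In the cutin list 12 of 18 tested genes were called, all positive, with a median of 0.90. DCR, an acyltransferase needed for cutin, stood at 186, 158 and 184 CPM in the margin and 42.3, 25.2 and 40.3 CPM in the center of the quadruple mutant. The Col-0 libraries gave 14.5, 20.9 and 16.4 CPM in the margin and 38.7, 45.7 and 38.2 CPM in the center. The quadruple mutant margin was above all other libraries and the Col-0 margin below them, and the centers overlapped (3.54 ± 0.28, adjusted p = 2.05e-07). AT5G33370, annotated as a GDSL lipase, had the highest interaction among the genes named here whose groups all had reads. It stood at 70.7, 53.9 and 61.0 CPM in the margin and 8.89, 4.31 and 6.78 CPM in the center of the quadruple mutant, against 1.20, 1.59 and 2.15 CPM in the margin and 4.85, 10.4 and 6.13 CPM in the center of Col-0 (5.33 ± 0.45, adjusted p = 2.52e-07). GPAT6, CYP77A6, CYP86A4, CYP86A8, LACS2, HTH, SHN2, MYB106, ABCG11 and ABCG13 were also called, while GPAT4, GPAT8, ABCG32, BDG1, SHN3 and MYB16 were not. DCF, for a feruloyl transferase of cutin, is not in this list and was negative, with an interaction of -2.12.

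The stomatal lineage list had 9 of 14 genes called, all positive, with a median of 0.61. SPCH, which starts the lineage, stood at 37.1, 31.2 and 33.5 CPM in the margin and 16.7, 16.4 and 15.7 CPM in the center of the quadruple mutant. In Col-0 it stood at 8.43, 10.01 and 8.04 CPM in the margin and 12.98, 12.4 and 13.1 CPM in the center. No groups overlapped (1.58 ± 0.15, adjusted p = 5.51e-07). The receptor gene TMM had 1.16 ± 0.11, adjusted p = 5.51e-07, and EPF2, BASL, POLAR, ERL1, ERL2, ERECTA and SCRM were also called. The later regulators MUTE and FAMA were not, and neither were SCRM2, EPF1 and SDD1. Mature guard cell genes had 2 of 8 called, KAT1 and AT1G22690, both negative, against 9.19% of all genes. The list median was -0.72, and the blocked fit called 5. The list summed to 67.0 to 75.6 CPM in the quadruple mutant margin and 62.1 to 81.2 CPM in its center, against 131 to 170 CPM in the Col-0 margin and 89.9 to 97.5 CPM in the Col-0 center. The potassium channel gene KAT1 stood at 7.79, 8.11 and 7.57 CPM in the margin and 8.15, 9.36 and 9.84 CPM in the center of the quadruple mutant, against 31.7, 37.98 and 36.5 CPM in the margin and 23.4, 21.1 and 20.7 CPM in the center of Col-0 (-0.92 ± 0.17, adjusted p = 0.000591). Of 11 trichome genes TTG2, GL2, EGL3 and CPC were positive and TTG1 negative, with a median of 1.04, and the list summed to 115 to 121 CPM in the quadruple mutant margin and 63.0 to 73.4 CPM in its center, against 65.9 to 71.8 CPM in the Col-0 margin and 57.5 to 66.1 CPM in the Col-0 center. GL2, a homeobox gene of trichome and root hair patterning, had 40.3, 36.5 and 35.3 CPM in the quadruple mutant margin and 16.3, 12.1 and 16.1 CPM in its center. Its Col-0 compartments overlapped, at 9.29, 10.6 and 9.76 CPM in the margin and 8.25, 12.01 and 8.65 CPM in the center (1.303 ± 0.18, adjusted p = 5.19e-05).

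Flavonoid genes had 6 of 9 tested members called, all positive, with a median of 0.92. LDOX, of anthocyanin synthesis, had the highest interaction of the genes chosen for their size (3.94 ± 0.64, adjusted p = 0.000221). It stood at 13.2, 16.1 and 15.7 CPM in the margin and 6.03, 4.72 and 2.93 CPM in the center of the quadruple mutant. Its Col-0 levels were 3.78, 2.93 and 2.297 CPM in the margin and 12.5, 18.6 and 11.5 CPM in the center. The quadruple mutant margin and the Col-0 center were both high and overlapped, as did the quadruple mutant center and the Col-0 margin, which were low. The anthocyanin sugar transferase gene UF3GT had 3.45 ± 0.54, adjusted p = 0.000156 and the reductase gene DFR 3.102 ± 0.79, adjusted p = 0.00954. MYB111, a regulator of flavonol synthesis, FLS1 and CHI were also called, CHS, F3'H and PAP1 were not, and 5 genes of the list had too few reads to test.

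**Figure D4:**
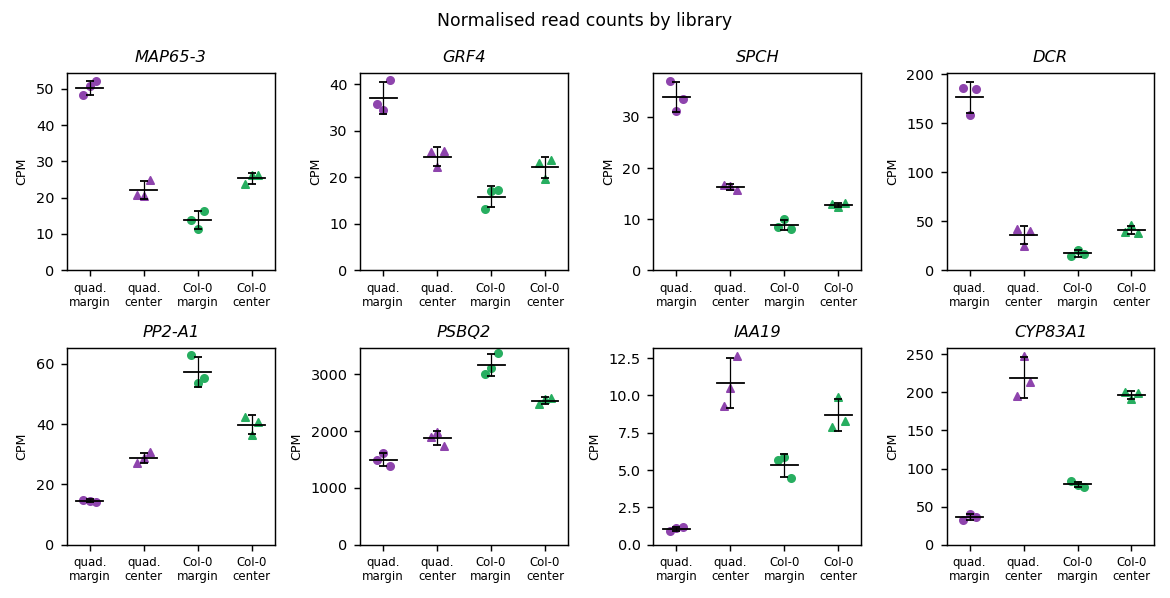
Normalised read counts (CPM, vertical axes, from 0) of 8 genes in each library, with quadruple mutant margin and center at the left and Col-0 margin and center at the right of each panel. Points are libraries, and bars are the mean ± SD of 3. MAP65-3, GRF4, SPCH and DCR were highest in the quadruple mutant margin, and PP2-A1, PSBQ2, IAA19 and CYP83A1 were lowest there.

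Light harvesting and photosystem genes had 29 of 31 members called, all negative, with a median of -0.59. Only LHCB1.1 (-0.30 ± 0.16) and PSBS (-0.23 ± 0.11) were not called, and in the blocked fit all 31 were. PSBQ2, a subunit of the oxygen evolving complex, stood at 1496, 1617 and 1376 CPM in the margin and 1900, 1986 and 1742 CPM in the center of the quadruple mutant. Col-0 leaves had 3010, 3108 and 3373 CPM in the margin and 2470, 2561 and 2575 CPM in the center. No groups overlapped. The margin was below the center in the quadruple mutant and above it in Col-0 (-0.65 ± 0.10, adjusted p = 8.57e-05). PSAD1, of photosystem I, had the same order of groups (-0.67 ± 0.11, adjusted p = 0.000181). The members lay between -1.12 for LHCB1.4 and -0.23 for PSBS, against 0.27 to 2.46 in the mitotic list. The PSBQ2 promoter, at chr4:2673244-2673493 on the minus strand, is given next.
PSBQ2: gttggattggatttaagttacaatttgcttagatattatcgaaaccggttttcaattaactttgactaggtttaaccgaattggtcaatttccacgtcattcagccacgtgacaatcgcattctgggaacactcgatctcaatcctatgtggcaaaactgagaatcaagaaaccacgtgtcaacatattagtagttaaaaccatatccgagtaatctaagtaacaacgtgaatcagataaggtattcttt
It has none of the 3 motifs searched, hence no capitals. The TCP core is in 5 of 31 promoters of the list (16.1%) and the MSA core in 4 (12.9%).

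In the phloem list 12 of 13 genes were called, all negative, with a median of -1.03. PP2-A1, a phloem lectin, stood at 14.9, 14.6 and 14.1 CPM in the margin and 27.2, 28.7 and 30.6 CPM in the center of the quadruple mutant. The Col-0 libraries gave 63.0, 53.6 and 55.3 CPM in the margin and 42.2, 36.4 and 40.8 CPM in the center. No groups overlapped, and the margin was below the center in the quadruple mutant and above it in Col-0 (-1.50 ± 0.14, adjusted p = 4.65e-07). SEOR2, of sieve elements, had 33.2, 37.9 and 32.9 CPM in the quadruple mutant margin and 80.0, 94.7 and 78.4 CPM in its center. Its Col-0 compartments overlapped, at 60.2, 64.7 and 62.0 CPM in the margin and 66.5, 56.7 and 65.6 CPM in the center (-1.27 ± 0.12, adjusted p = 6.21e-07). The sucrose transport genes SUC2, SWEET11 and SWEET12 were also called. In the xylem list 8 of 16 genes were called, all negative, with a median of -0.86. Its summed level was 126 to 132 CPM in the quadruple mutant margin and 250 to 284 CPM in its center, against 155 to 179 CPM in the Col-0 margin and 181 to 198 CPM in the Col-0 center. XCP2, a protease of tracheary elements, stood at 33.2, 35.1 and 33.5 CPM in the margin and 63.6, 74.0 and 72.9 CPM in the center of the quadruple mutant, against 45.6, 50.3 and 40.1 CPM in the margin and 50.6, 47.8 and 47.3 CPM in the center of Col-0 (-0.95 ± 0.11, adjusted p = 7.68e-06). For XCP2 the quadruple mutant margin was the lowest group, its center the highest, and the Col-0 compartments overlapped between them. FLA11 had -0.83 ± 0.11, adjusted p = 2.84e-05, and the cellulose synthase genes CESA4, CESA7 and CESA8, LAC4, LAC17 and XCP1 were also called. Of 9 HD-ZIP III and procambium genes TMO5 (-1.16 ± 0.18, adjusted p = 0.00018) and ATHB8 (-0.44 ± 0.14, adjusted p = 0.0357) were negative. This count stands against 9.19% of all genes. The ATHB8 call was lost without any 1 of 9 libraries.

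In the Aux/IAA and GH3 list 11 of 19 tested genes were called, all negative and all of the Aux/IAA family, with a median of -1.04. Library size alone gave 1 positive and 8 negative. IAA19, a repressor of auxin response that is itself raised by auxin, stood at 0.916, 1.098 and 1.16 CPM in the margin and 9.31, 10.5 and 12.6 CPM in the center of the quadruple mutant. In Col-0 it stood at 5.68, 5.86 and 4.45 CPM in the margin and 7.88, 9.91 and 8.29 CPM in the center. The centers overlapped, the Col-0 margin was below them and the quadruple mutant margin was below all other libraries (-2.63 ± 0.26, adjusted p = 1.18e-06). IAA7 stood at 50.7, 52.0 and 45.2 CPM in the margin and 128, 118 and 122 CPM in the center of the quadruple mutant, against 68.5, 70.8 and 66.2 CPM in the margin and 83.6, 91.5 and 84.2 CPM in the center of Col-0. No groups overlapped, and the quadruple mutant held both the lowest group, its margin, and the highest, its center (-0.97 ± 0.10, adjusted p = 1.18e-06). The others called were IAA1, IAA2, IAA3, IAA4, IAA13, IAA14, IAA16, IAA17 and IAA29. The tested GH3 genes, which conjugate auxin, were not called: GH3.2, GH3.3, GH3.5 and GH3.6. All 6 tested genes of the cluster SAUR61 to SAUR68, small auxin-induced genes, were negative, with a median of -1.49. SAUR62 stood at 2.02, 2.70 and 2.63 CPM in the margin and 6.45, 6.19 and 8.11 CPM in the center of the quadruple mutant, against 16.0, 9.16 and 14.5 CPM in the margin and 12.01, 12.3 and 13.5 CPM in the center of Col-0 (-1.52 ± 0.26, adjusted p = 0.000401).

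The IAA19 and IAA7 promoters were also chosen by adjusted p, and the first has auxin response elements in this window while the second has none. They lie at chr3:5263751-5264000 on the plus strand and at chr3:8194356-8194605 on the plus strand, with matches in capitals.
IAA19: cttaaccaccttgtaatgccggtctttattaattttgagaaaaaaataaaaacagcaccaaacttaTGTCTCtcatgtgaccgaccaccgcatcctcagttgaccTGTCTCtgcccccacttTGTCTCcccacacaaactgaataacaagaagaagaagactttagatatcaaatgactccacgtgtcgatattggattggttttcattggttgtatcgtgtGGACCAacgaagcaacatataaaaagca
IAA7: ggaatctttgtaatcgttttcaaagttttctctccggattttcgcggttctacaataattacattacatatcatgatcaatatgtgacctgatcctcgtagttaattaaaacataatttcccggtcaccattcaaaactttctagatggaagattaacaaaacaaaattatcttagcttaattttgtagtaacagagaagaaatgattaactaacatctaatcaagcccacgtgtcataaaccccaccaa
IAA19 has auxin response elements beginning 184, 145 and 128 bases before the start and a TCP core 28 bases before it, while IAA7 has none of the 3 motifs in this window. The auxin element is in 8 of 19 promoters of the list (42.1%), against 10.6% of promoters tested, 10.4% of those of positive genes and 10.5% of those of negative genes.

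Of 13 genes that make or carry auxin 3 were positive, among them LAX3 and YUC6, and 4 negative (PIN3, PIN4, PIN7 and AUX1), with a median of 0.11. The efflux carrier gene PIN7 stood at 32.2, 30.1 and 34.7 CPM in the margin and 82.1, 82.7 and 78.7 CPM in the center of the quadruple mutant, against 75.7, 71.8 and 78.2 CPM in the margin and 85.8, 82.4 and 97.2 CPM in the center of Col-0 (-1.097 ± 0.13, adjusted p = 5.66e-06). Its quadruple mutant margin was the lowest group. The importer genes had 1.13 ± 0.26, adjusted p = 0.00423 for LAX3 and -0.60 ± 0.11, adjusted p = 0.000559 for AUX1. The synthesis gene TAA1 was not called.

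In the other hormone lists the counts stand against 7.96% of all genes positive and 9.19% negative. Of 13 cytokinin genes IPT3, ARR5 and ARR9 were negative, with a median of -0.33, and 1 member was called without quadruple mutant center library 2. IPT3, for cytokinin synthesis, had 0.641, 1.01 and 1.26 CPM in the quadruple mutant margin, against 9.29, 7.94 and 8.90 CPM in the Col-0 margin (-1.79 ± 0.44, adjusted p = 0.00711). Of 8 gibberellin genes GASA6 and GA20OX1 were negative, with a median of -0.94, and the GA20OX1 call was lost without any 1 of 9 libraries. GASA6, a gibberellin-induced peptide gene, stood at 14.02, 16.6 and 10.5 CPM in the margin and 21.4, 30.4 and 18.1 CPM in the center of the quadruple mutant. Its Col-0 levels were 228, 217 and 218 CPM in the margin and 130, 110 and 110 CPM in the center. No groups overlapped (-1.70 ± 0.26, adjusted p = 0.000127). No gene of 11 for jasmonate response was called by edgeR's quasi-likelihood test or by DESeq2, with 2 members (JAZ3 and JAZ12) at an unadjusted p under 0.05, and of 14 jasmonate synthesis genes JAR1 was negative (-0.39 ± 0.10, adjusted p = 0.00947). In the blocked fit, 2 jasmonate response genes were positive and 3 negative. Of 7 tested genes known as targets of CIN-class TCPs, AS1 was positive and SAUR65, HAT2 and IAA3 negative. The targets LOX2, ARR16 and KRP1 were not called.

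Expansin and XTH genes, for wall loosening, split evenly: 4 of 17 were positive (EXPA10, EXPA15, XTH9 and XTH16) and 4 negative (EXPA6, EXPA8, EXPA11 and XTH4). EXPA15 stood at 53.1, 44.7 and 49.9 CPM in the quadruple mutant margin, above the other 3 groups, which overlapped each other (0.92 ± 0.16, adjusted p = 0.000542). EXPA8 stood at 11.5, 11.2 and 12.6 CPM in the margin and 17.8, 26.9 and 27.9 CPM in the center of the quadruple mutant, against 57.8, 47.4 and 81.0 CPM in the margin and 34.8, 34.5 and 44.2 CPM in the center of Col-0. No groups overlapped (-1.75 ± 0.26, adjusted p = 7.41e-05). The negative count was 2 without quadruple mutant margin library 2 or 3 or its center library 1 or 2. It was also 2 without Col-0 margin library 1, without Col-0 center library 3, and with library size alone.

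Glucosinolates are defense compounds of the cabbage family. In the aliphatic branch 9 of 17 genes were called, all negative, with a median of -1.04, and 15 were called in the blocked fit. The margin was below the center in both genotypes, with a median of -2.84 in the quadruple mutant and -1.69 in Col-0. CYP83A1, an enzyme of the core pathway, stood at 32.9, 39.8 and 35.9 CPM in the margin and 195, 248 and 214 CPM in the center of the quadruple mutant. Col-0 leaves had 83.3, 77.7 and 76.1 CPM in the margin and 201, 191 and 199 CPM in the center. The centers overlapped and the quadruple mutant margin was the lowest group (-1.28 ± 0.22, adjusted p = 0.00044). SOT17, which adds the sulfate, had -1.93 ± 0.36, adjusted p = 0.000911. MYB28, SOT18, SUR1, GSTU20, IPMI2, IMD1 and AT2G31790 were also called. CYP79F1 had a large margin minus center difference of -4.24 in the quadruple mutant and -3.09 in Col-0, but no call for the interaction (-1.15 ± 0.47, adjusted p = 0.1). In the indole and camalexin branch 6 of 9 genes were called, all negative, with a median of -0.96. CYP71A13, of camalexin synthesis, stood at 1.56, 1.18 and 2.31 CPM in the margin and 3.39, 2.77 and 3.99 CPM in the center of the quadruple mutant, against 14.1, 15.6 and 19.8 CPM in the margin and 7.16, 7.55 and 10.9 CPM in the center of Col-0 (-1.95 ± 0.34, adjusted p = 0.000426). UGT74B1 had -0.96 ± 0.19, adjusted p = 0.00139.

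**Figure D5:**
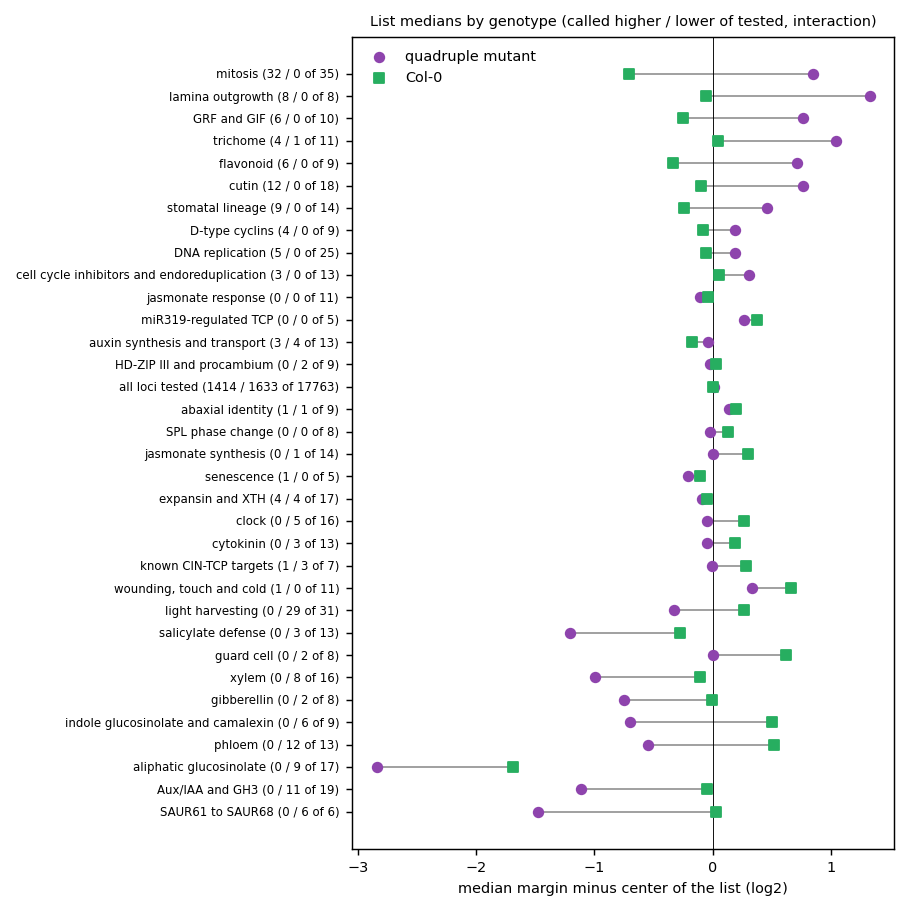
Median margin minus center difference (log2, horizontal axis) of each gene list with at least 5 genes tested, in the quadruple mutant (purple circles) and in Col-0 (green squares), with members called positive and negative beside each name. The mitosis medians were 0.85 in the quadruple mutant and -0.71 in Col-0, and those of aliphatic glucosinolate genes -2.84 in the quadruple mutant and -1.69 in Col-0.

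The list counts of this paragraph also stand against 7.96% of all genes positive and 9.19% negative. Of 13 salicylate defense genes EDS5, ICS1 and PBS3 were negative, but none was called without Col-0 margin library 3. Without quadruple mutant center library 1, 6 were called, and the block gave 1 positive and 8 negative. Of 16 clock genes 5 were negative (CCA1, LNK2, PRR7, RVE4 and RVE8), with 2 called without quadruple mutant center library 2. PRR7 had -0.40 ± 0.09, adjusted p = 0.00274. No SPL phase change gene of 8 was called by edgeR's quasi-likelihood test or DESeq2, with 1 member (SPL11) at an unadjusted p under 0.05, and the block called 1. Of 11 genes of wounding, touch and cold COR47 was positive (0.61 ± 0.14, adjusted p = 0.0041), beside 7.96% of all genes. The median of this list was -0.42, and 0.68 without Col-0 margin library 2, which had the high sum given above. The COR47 call was kept without each library of the contrast. Of 5 senescence genes WRKY6 was positive (0.89 ± 0.23, adjusted p = 0.0109), and 2 members were positive without Col-0 margin library 2. Of the boundary and KNOX list KNAT6, LSH4 and BOP2 were tested and not called, and the block called 1.

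Outside the lists, the genes with the highest and lowest interactions are given next. ABCB13, an ABC transporter gene, stood at 16.2, 15.0 and 17.5 CPM in the margin and 3.07, 3.17 and 3.72 CPM in the center of the quadruple mutant. The Col-0 libraries gave 1.89, 2.08 and 1.72 CPM in the margin and 3.52, 4.95 and 3.84 CPM in the center. The quadruple mutant margin was above all other libraries and the Col-0 margin below them (3.39 ± 0.25, adjusted p = 9.43e-08). MSRB9, a methionine sulfoxide reductase gene, had 3.85 ± 0.64, adjusted p = 0.000258, the nitrile specifier gene NSP4 3.33 ± 0.52, adjusted p = 0.00016, and NADP-ME3, for a malic enzyme, 3.28 ± 0.53, adjusted p = 0.00021. GLC had 35.6, 29.7 and 32.4 CPM in the quadruple mutant margin and 7.62, 5.05 and 7.18 CPM in its center, and its other 3 groups overlapped each other (3.05 ± 0.39, adjusted p = 1.72e-05). CYP708A1 had 3.14 ± 0.81, adjusted p = 0.01, a call lost without Col-0 center library 2.

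At the other end RL3, of the RADIALIS-like MYB group, stood at 1.28, 0.845 and 0.736 CPM in the margin and 4.34, 4.80 and 4.52 CPM in the center of the quadruple mutant. In Col-0 it stood at 8.26, 6.96 and 8.61 CPM in the margin and 1.58, 3.22 and 4.32 CPM in the center. No groups overlapped, and the compartments lay in opposite order in the 2 genotypes (-3.61 ± 0.39, adjusted p = 2.88e-06). For the chitinase gene ChiC the compartments also lay in opposite order, with 2.84, 3.04 and 1.79 CPM in the margin and 4.97, 5.78 and 5.58 CPM in the center of the quadruple mutant, against 8.60, 9.89 and 9.04 CPM in the margin and 2.305, 1.98 and 2.76 CPM in the center of Col-0 (-3.03 ± 0.30, adjusted p = 1.21e-06). ACD6, an ankyrin protein gene of defense, had 1.74, 2.53 and 2.103 CPM in the quadruple mutant margin and 18.1, 28.3 and 29.8 CPM in its center, while its Col-0 compartments overlapped at 34.9, 41.5 and 59.4 CPM in the margin and 49.5, 71.5 and 98.0 CPM in the center (-2.88 ± 0.46, adjusted p = 0.000181). The channel gene CNGC11 had -2.88 ± 0.59, adjusted p = 0.00201, the receptor-like protein gene RLP19 -2.22 ± 0.58, adjusted p = 0.0106, the sulfur assimilation kinase gene AKN2 -2.15 ± 0.43, adjusted p = 0.00146 and DCF, for a feruloyl transferase of cutin, -2.12 ± 0.27, adjusted p = 1.37e-05. The phosphate transporter gene PHT1;4 (-3.21 ± 0.77, adjusted p = 0.00608) and WRKY29 (-3.07 ± 0.81, adjusted p = 0.012) were high in the Col-0 margin alone, and both calls were lost without quadruple mutant center library 1. PHT1;4 stood at 11.2, 10.9 and 9.04 CPM in the Col-0 margin, against 0.364, 0.991 and 0.120 CPM in the Col-0 center.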

How the data were processed

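The authors deposited 1 table of raw read counts per locus, whole numbers for 33602 loci in 18 libraries. Programs named in the submitters' processing notes are TopHat2 2.0.13, HTSeq 0.7.2 and edgeR 3.8.6, with the TAIR10 genome, and the sources used here do not say which options or strand were used. The 5 summary rows of the table (in the libraries of the contrast 0.4997% to 0.758% of reads in no feature and 1.47% to 1.57% ambiguous) were left out of library sizes and tests.

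Counts were fitted with edgeR 4.0.16 in R 4.3.3 (TMM scaling, filterByExpr by group, 1 mean per group over all 18 libraries, quasi-likelihood F test, Benjamini-Hochberg adjustment over the 17763 loci that passed the filter, threshold 0.05). The SE is the log2 value divided by the square root of F, without its sign. Biological variation between libraries was 7.68%, and counts of replicate pairs differed by more than sampling noise (chi-square per degree of freedom of 2.18 to 6.21 over 18 pairs). Margin and center libraries with the same number in the labels deviated together from their group means (correlations of 0.196 to 0.384 in 9 pairs, against -0.238 to 0.0383 for 18 pairs of unequal number within a genotype), so the number was used as a leaf pool block in an alternative fit. The other alternatives were RLE scaling, library size alone, no filter, DESeq2 1.42.0, a fit of 12 libraries and leaving out each library.

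Genes given with values were the TCP genes, the 10 highest and 10 lowest called interactions among genes with a symbol and at least 5 CPM in 1 group, and up to 4 called members of each of 35 lists (2 with the lowest adjusted p in each direction), 82 in all. A called gene chosen by this rule and a promoter are not reported here. Others given, such as members not called or at the end of a list's range, were chosen after their values were seen. The members and lists were chosen with earlier results of these data known. Promoters were chosen among the named genes of the mitosis, light harvesting, GRF and GIF, Aux/IAA and GH3 and aliphatic glucosinolate lists. Those with the lowest adjusted p over these lists together were taken. They were read from TAIR10.1, in which 32835 of the loci were found, with its own annotation.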

Additional observations from a re-analysis of the deposited data

Results flagged for a closer look

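Each result here is a difference between the 2 genotypes in the margin minus center difference, tested as the interaction itself, with 3 libraries per group. In all, 3047 of 17763 genes (17.2%) differed between the quadruple mutant and Col-0, 7.96% positive and 9.19% negative. Of the mitosis list 32 of 35 tested genes were positive, and of the GRF and GIF list 6 of 10. Negative calls covered 29 of 31 light harvesting genes, 11 of 19 genes of the Aux/IAA and GH3 list and 9 of 17 aliphatic glucosinolate genes. Among the 82 genes chosen by the rule for naming, 77 passed the test, and since that rule takes called genes, their number is a description. With 3 libraries in each group, no group was tested for a library far from the others.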

How the results depend on the processing

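No interaction called under TMM changed sign under any alternative. With the leaf pool as a block, which pairs margin and center of the same leaves, 4996 genes passed (2290 positive, 2706 negative), 3836 passed for margin minus center in Col-0 and 15 aliphatic glucosinolate genes were negative. Those 15 were also the count in the fit of 12 libraries. The block added calls and lost none. Library size alone gave 3083 positive and 938 negative genes. The total was 3067 with RLE scaling, 3038 without a filter, 3332 with 12 libraries and 2334 with DESeq2, which moved it by less than 1.5 times. At a size of 1.0 log2 in place of 0.5, 374 genes differed between margin and center in the quadruple mutant alone, 103 in Col-0 alone, 57 in both in opposite directions, 35 in both in the same direction and 2478 in neither. At that size 828 differed between the genotypes in the margin alone, 31 in the center alone, 72 in both in the same direction, 20 in opposite directions and 2096 in neither; the higher threshold itself lowers such counts. For the other moved values the cause was not tested. Leaving out 1 library at a time gave 2254 to 2918 genes, 1000 to 1378 positive and 1165 to 1741 negative. The mitosis count stayed at 32, light harvesting gave 28 to 30, GRF and GIF 5 to 6, Aux/IAA and GH3 9 to 11 and aliphatic glucosinolate 7 to 10. Margin minus center gave 3305 to 4637 in the quadruple mutant and 1377 to 2088 in Col-0, and the quadruple mutant minus Col-0 gave 6884 to 7800 in the margin and 4171 to 5560 in the center. Of the 77 called genes named by the rule, 62 passed under every alternative and 15 lost the call under at least 1. JAR1, TTG1 and RVE4 lost it with library size alone only, and WRKY6 with DESeq2 only. Depth limits the genes with few reads: 6 of the 3047 had a group with no read, and their fitted values are no measure of size.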

Other observations

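Besides the lists, 10 gene families were taken by the product names of the reference annotation, chosen after results were known. They are described by counts and medians beside the background of 7.96% of all genes positive and 9.19% negative. Product names miss members of a family, so these families are incomplete. ABCG11, ABCG13 and ABCG32 of the cutin list were tested, yet only 2 ABCG transporters were found by product name. Some members found also belong to the lists: 8 of 35 WRKY factors, 1 of 2 ABCG transporters and 1 of 41 GDSL lipases. Of 26 kinesins, motor proteins on microtubules, 14 were positive and none negative, with a median interaction of 1.05, and 2 of the 26 belong to the mitosis list. KINESIN-12B had 49.6, 52.1 and 58.4 CPM in the quadruple mutant margin and 25.1, 22.3 and 24.9 CPM in its center, against 10.7, 12.5 and 13.6 CPM in the Col-0 margin and 23.0, 23.4 and 25.6 CPM in the Col-0 center (2.11 ± 0.20, adjusted p = 5.51e-07). The spindle motor gene ATK1 had 1.46 ± 0.15, adjusted p = 2.03e-06 and ATK5 1.59 ± 0.19, adjusted p = 9.37e-06. Of 18 tubulins 5 were positive and 1 negative, with a median of 0.15, and TUB7 had 0.83 ± 0.09, adjusted p = 2.03e-06. Of 16 core histones 7 were positive, with a median of 0.27, and HTA11, a histone H2A gene, had 0.83 ± 0.08, adjusted p = 1.38e-06.

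Ribosomal protein genes had 73 of 265 positive and 3 negative, with a median of 0.28. This count depended on scaling, with 184 positive and 1 negative by library size alone, and on the block, with 166 positive and 5 negative. It also ran between 31 without Col-0 margin library 3 and 103 without Col-0 center library 3. Of 20 cysteine-rich receptor kinases CRK4, CRK19 and CRK40 were negative, with a median of -0.32, but 1 was called without quadruple mutant margin library 1 or quadruple mutant center library 2, and 6 in the blocked fit. Both tested ABCG transporters found by product name were positive, but neither was called without quadruple mutant margin library 1, quadruple mutant center library 2 or Col-0 margin library 2, and 1 was called without any 1 of 5 other libraries. WRKY factors had 4 positive and 3 negative of 35, with 1 negative without quadruple mutant center library 2, 5 without Col-0 margin library 1, 8 in the blocked fit and 1 with library size alone or DESeq2. MADS factors had 1 positive and 2 negative of 22, with 2 positive without Col-0 margin library 2. GDSL lipases had 7 positive and 6 negative of 41, with 4 positive by DESeq2, and also without quadruple mutant margin library 1 or 3, quadruple mutant center library 1 or 2, or Col-0 margin library 3. Lipid transfer proteins had 3 positive and 7 negative of 33, with 4 negative without Col-0 margin library 3 or with library size alone, and 5 positive and 11 negative in the blocked fit.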
